A study of Mus musculus with 3 samples.

Results

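Chemokines and their receptors were examined in follicular regulatory T (Tfr) cells sorted from the spleens of mice that lacked Rptor in T cells or were wild type (WT). The members were the genes whose symbol is Ccl, Cxcl, Xcl or Cx3cl followed by a number alone (32 chemokines) or Ccr, Cxcr, Xcr, Cx3cr or Ackr followed by a number alone (20 receptors), each read by at least 1 probe set that names that gene only. These 52 genes had 84 probe sets, of 18193 genes named in this way on the array. The naming rule uses symbols and no measured value, although the family was taken up with earlier results of these data known. The Rptor-null group was 2 arrays, each of RNA pooled from 8 mice with CD4-Cre and Rptor fl/fl alleles, and the WT group was 1 array of RNA pooled from 4 mice. All mice were on the C57BL/6 background and had been immunized with OVA 8 days before the spleen cells were taken, and ages, sexes and whether the WT mice carried Cre were not given. Lineage-depleted cells of both groups were sorted with antibodies to CXCR5, GITR, CD25, CD44 and CD4. CD4-Cre acts in the T lineage, so most other cells of these mice keep Rptor.

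Rptor encodes raptor, the subunit that defines the growth-regulating kinase complex mTORC1. Chemokines are small secreted proteins named after the spacing of their first cysteines (CC, CXC, C and CX3C), and they guide cells through receptors with 7 membrane-spanning segments coupled to Gi proteins. Atypical receptors (Ackr) bind chemokines without that coupling and take them up. CXCR5 leads lymphocytes into B cell follicles towards CXCL13, CCR7 holds them in the T cell zone, and CXCR4 responds to CXCL12. CXCR3, CXCR6 and CCR6 are typical of effector and memory T cells.

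All 10 markers listed for Tfr cells, among them Foxp3, Cd4, Cd3e and Cxcr5, were above background on each of the 3 arrays. So were 58.5% of all named genes. The 11 macrophage and monocyte, 5 neutrophil and 6 basophil and mast cell markers with a probe set were above it as well. These readings therefore do not tell Tfr cells from a mixture of cells. Rptor itself read 353 and 412 in Rptor-null cells, against 365 in WT cells (adjusted p = 0.824), on a probe set whose place relative to the deleted part is not known, so it does not check the deletion. The 3' to 5' signal ratio of Gapdh was 1.94 and 2.58 on the Rptor-null arrays and 1.11 on the WT array, and that of beta-actin was 2.65 and 2.87 on the Rptor-null arrays and 1.40 on the WT array. Both ratios were thus higher on both Rptor-null arrays. A difference in RNA quality would go along with genotype here and cannot be told apart from it, for any fold given below. The WT group has no replicate, so its values carry no error. The limma fit took its spread from the 2 Rptor-null arrays and assumed that the WT array varies like them. An exact permutation test of 2 arrays against 1 cannot go below p = 0.333.

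Values are intensities in array units, and each gene is compared between groups on its own probe sets, with no level set against that of another gene. Summed levels of marker lists, given further on as descriptions, weigh bright probe sets most. Background was set on each array at the 95th percentile of the 78 probe sets for olfactory, vomeronasal and trace amine receptors, genes of the nasal epithelium. It was 53.2 and 56.8 on the Rptor-null arrays and 52.1 on the WT array. A gene with several probe sets is given by its brightest.

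Receptors were above this background on all 3 arrays in 15 of 20 cases, or 75.0%, and chemokines in 17 of 32 cases, or 53.1%. Over all 18193 named genes the share was 58.5%. The receptors that passed were Cxcr3, Cxcr4, Cxcr5, Cxcr6, Cxcr2, Ccr1, Ccr2, Ccr3, Ccr6, Ccr7, Ccr9, Ccr10, Cx3cr1, Ackr1 and Ackr4. The chemokines that passed were Ccl1, Ccl3, Ccl4, Ccl5, Ccl6, Ccl9, Ccl24, Ccl25, Cxcl1, Cxcl2, Cxcl9, Cxcl10, Cxcl13, Cxcl16, Cxcl17, Cx3cl1 and Xcl1. With a background at the 99th percentile 9 of 20 receptors and 11 of 32 chemokines passed. The share over all named genes is not given at that level. Those lost were Ccr1, Ccr3, Ccr10, Cxcr2, Ackr1, Ackr4, Ccl1, Ccl24, Ccl25, Cx3cl1, Cxcl13 and Cxcl17. Ccl24 was lost on the WT array, at 94.3 against 96.1. No receptor was above background in 1 group only.

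Ackr2, Ackr3, Ccr4, Ccr8 and Xcr1 were at or below background on every array, with values between 12.6 and 47.3. CCR4 and CCR8 are receptors known from skin-homing and tissue regulatory T cells, and XCR1 marks cross-presenting dendritic cells. Among the chemokines 13 were at or below background on every array, with values between 8.99 and 54.4: Ccl2, Ccl7, Ccl8, Ccl11, Ccl12, Ccl22, Ccl28, Cxcl3, Cxcl5, Cxcl11, Cxcl12, Cxcl14 and Cxcl15. Only 2 chemokines differed in this respect between arrays. Ccl17, a ligand of CCR4, read 59.5 and 60.9 in Rptor-null cells, above background on both arrays, against 45.1 in WT cells, which is not above background. That made it at least 1.12-fold higher in Rptor-null cells when WT was set to its background level (adjusted p = 0.209). Ccl20, the ligand of CCR6, read 53.8 and 51.4 in Rptor-null cells and 52.8 in WT cells, and these straddle the background of the arrays.

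**Figure D1:**
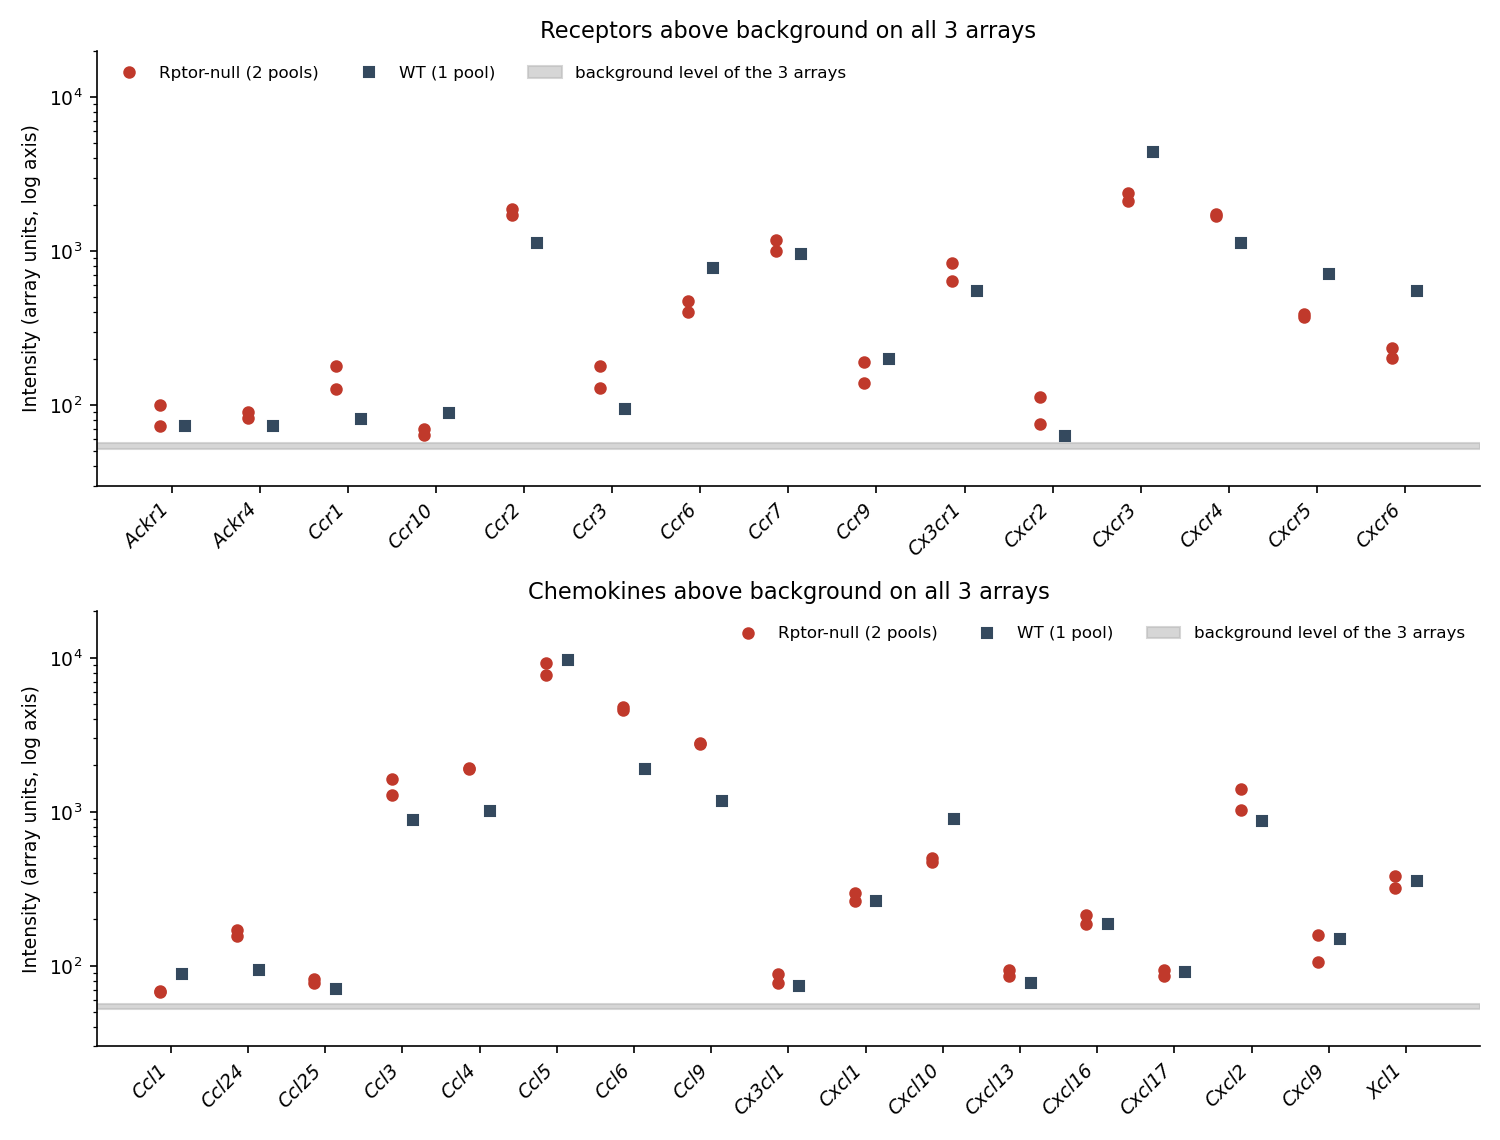
Intensity (log axis, array units) of the 15 receptors and the 17 chemokines above background on all 3 arrays, with a circle for each of the 2 Rptor-null pools, a square for the WT pool and a grey band over the background levels of 52.1 to 56.8. The Rptor-null circles of Cxcr3, Cxcr5, Cxcr6, Ccr6 and Cxcl10 lie below the WT square, and those of Ccl3, Ccl4, Ccl6 and Ccl9 lie above it.

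Past the test more receptors fell than rose, which was also so among all genes tested, while more chemokines rose than fell. Differences were tested on the log2(intensity + 16) scale with limma and Benjamini-Hochberg adjustment over the 12721 genes above a level of 35.0 units, and folds are on that scale, which understates changes of dim genes. Of the 18 receptors tested 4 fell (22.2%), 2 rose (11.1%) and 12 did not pass. Of the 23 chemokines tested 5 rose (21.7%), 1 fell (4.35%) and 17 did not pass. Over all genes tested 11.1% fell and 3.93% rose. The fallers were the receptors Cxcr6, Cxcr3, Cxcr5 and Ccr6 and the chemokine Cxcl10. The risers were the receptors Ccr2 and Cxcr4 and the chemokines Ccl6, Ccl9, Ccl4, Ccl24 and Ccl3. The median log2 difference was 0.087 for the receptors and 0.13 for the chemokines, beside -0.060 over all genes tested. Whether receptors and chemokines differ as groups was not tested.

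Both Rptor-null arrays lay below WT for 8 of the 18 receptors (44.4%) and above it for another 8 (44.4%). They lay above WT for 13 of the 23 chemokines (56.5%) and below it for 4 (17.4%). Over all genes tested the shares were 48.7% below and 32.8% above. All of these counts rest on the same single WT array. Each Rptor-null pool was at least 2-fold higher than WT for Ccl6 and Ccl9 and at least 2-fold lower for Cxcr6. Over all genes 0.393% met that rule as higher and 0.597% as lower.

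**Figure D2:**
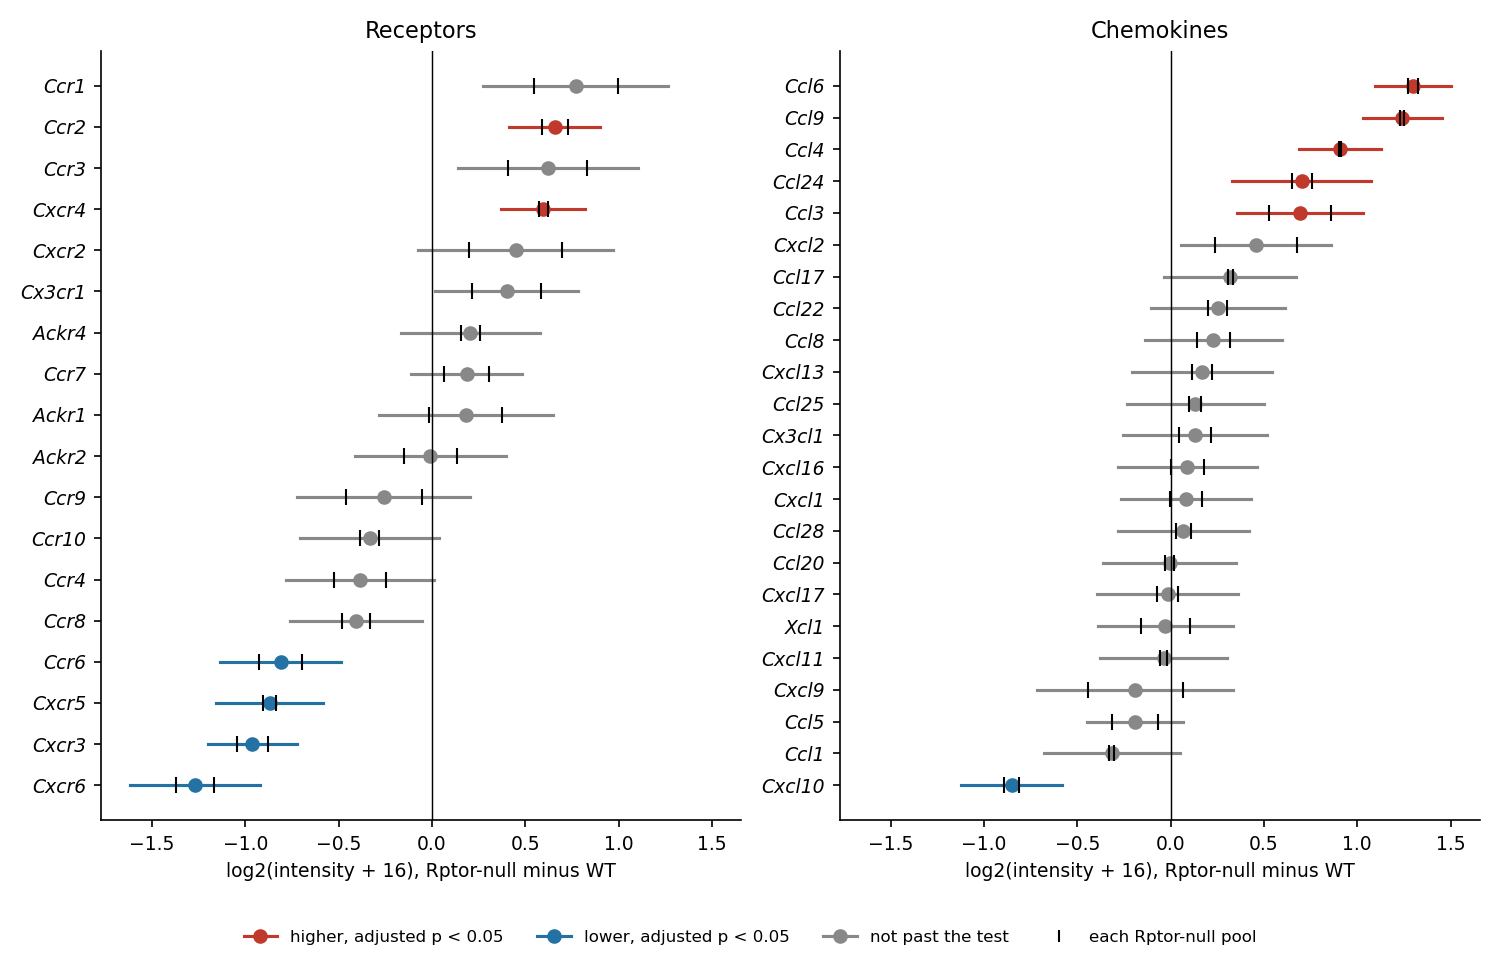
Difference in log2(intensity + 16), Rptor-null minus WT, of the 18 receptors and 23 chemokines tested, with circles for the fitted difference, bars for its 95% confidence interval and ticks for each Rptor-null pool. Receptors spread to both sides, from -1.27 for Cxcr6 to 0.77 for Ccr1, while the chemokines run from -0.85 for Cxcl10 to 1.30 for Ccl6, with Cxcl10 alone past the test on the lower side.

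The 3 receptors for homing to follicles and lymph nodes did not move together. Cxcr5 read 374 and 392.02 in Rptor-null cells, against 713 in WT cells. Both Rptor-null values were below WT and close to each other, and the fit gave a log2 difference of -0.87 ± 0.12 (SE), 1.83-fold lower (adjusted p = 0.00639). CXCR5 protein was also 1 of the stains of the sort, so the cells of both groups had been gated on it. Cxcr4 read 1683 and 1741 in Rptor-null cells and 1126 in WT cells, with no overlap. It rose 1.51-fold (log2 difference 0.60 ± 0.096, adjusted p = 0.00955). Ccr7, whose product responds to CCL19 and CCL21, read 996 and 1181 in Rptor-null cells, against 952 in WT cells. Its log2 difference of 0.19 ± 0.13 did not pass (adjusted p = 0.384), and its 95% confidence interval ran from -0.11 to 0.48.

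Fewer cells of a type and less RNA per cell cannot be told apart in pooled RNA of this kind, for any gene given here. Of the Tfr cell markers 5 of 10 fell, 0 rose and 5 did not pass, with a median log2 difference of -0.72. Among all genes tested 11.1% fell and 3.93% rose, and the marker lists were chosen with earlier results of these data known. Their summed level was 12488 and 12123 in Rptor-null cells and 21505 in WT cells. Cxcr5 is 1 of the 5 that fell, beside Tnfrsf18, Ctla4, Pdcd1 and Icos. Like CXCR5, the products of Tnfrsf18 (GITR), Il2ra (CD25) and Cd4 were stains of the sort, so the cells of both groups had been gated with them. The part of these markers in the receptor differences was not tested.

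Among the other receptors known from T cells 3 of 7 fell, 0 rose and 4 did not pass. Of the 7, 5 were above background on all 3 arrays, and for these 5 both Rptor-null arrays lay below WT. Among all genes tested both lay below WT in 48.7%, and 11.1% fell past the test. This grouping by role was made with the values known and gets no test.

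Cxcr6 had the largest fall among the members. Its product binds CXCL16 and is found on tissue-resident and effector T cells and on NKT cells. It read 236 and 203 in Rptor-null cells, against 551 in WT cells. Both Rptor-null values were more than 2-fold below WT, and the log2 difference was -1.27 ± 0.15 (2.41-fold lower, adjusted p = 0.00456). The other probe set of the gene read 102 and 98.2 in Rptor-null cells, against 450 in WT cells, a log2 difference of -2.005. Both probe sets therefore placed Cxcr6 lower, the dimmer one by more.

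Cxcr3 is the receptor for the interferon-induced chemokines CXCL9, CXCL10 and CXCL11 and is typical of T cells of the type 1 response. It read 2117 and 2380 in Rptor-null cells, against 4387 in WT cells. The 2 Rptor-null values were separated from WT by far more than from each other, and the log2 difference was -0.96 ± 0.10 (1.95-fold lower, adjusted p = 0.00402). Ccr6, the receptor for CCL20, read 477 and 403 in Rptor-null cells, against 781 in WT cells. It fell 1.75-fold (log2 difference -0.81 ± 0.14, adjusted p = 0.0111).

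The remaining 4 of these T cell receptors gave smaller differences that did not pass. Ccr9, the gut-homing receptor for CCL25, read 140.0 and 191 in Rptor-null cells and 199 in WT cells (adjusted p = 0.439). Ccr10, the receptor for CCL27 and CCL28, read 64.3 and 70.2 in Rptor-null cells, against 88.9 in WT cells (adjusted p = 0.209). Ccr4 read 25.9 and 34.9 in Rptor-null cells, against 44.4 in WT cells, and Ccr8 read 26.3 and 31.0 in Rptor-null cells, against 43.2 in WT cells. The last pair lies below background in both groups, so no fold is given for them.

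The ligands of CXCR3 were measured on the same arrays. Cxcl10 read 503 and 475 in Rptor-null cells, against 895 in WT cells. It was the only chemokine past the test on the lower side, with a log2 difference of -0.85 ± 0.12 (1.80-fold lower, adjusted p = 0.00596). Cxcl9 read 106 and 157 in Rptor-null cells and 150 in WT cells, so the WT value lay between them (adjusted p = 0.629). Cxcl11 was at or below background on all arrays, between 34.4 and 36.3.

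The promoters of Cxcl10, Cxcr3 and Cxcr6 are shown because Cxcr3 and its ligand fell on the same arrays and Cxcr6 fell most. Each runs 5′ to 3′ on the gene's strand from 250 bases before to 50 bases after its start, from RefSeq, build GRCm38.p6, which had promoters for 39 of the 52 members. Capitals mark matches on either strand to GAAA, any 2 bases and GAAA (an interferon-stimulated response element), to GGG, any 2 bases, TT, any base and CC (a kappa B-like site), and to AGGAAG (an ETS site) and ACCACA (a RUNX site), letters that were chosen with these sequences in view.
Cxcl10, chr5:92348840-92349139, minus strand: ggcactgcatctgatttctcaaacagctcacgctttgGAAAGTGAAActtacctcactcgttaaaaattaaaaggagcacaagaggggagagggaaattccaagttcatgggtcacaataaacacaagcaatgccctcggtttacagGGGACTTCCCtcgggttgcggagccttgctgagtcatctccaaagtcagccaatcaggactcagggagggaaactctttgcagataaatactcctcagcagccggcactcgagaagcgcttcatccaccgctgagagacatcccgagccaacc
Cxcr3, chrX:101734098-101734397, minus strand: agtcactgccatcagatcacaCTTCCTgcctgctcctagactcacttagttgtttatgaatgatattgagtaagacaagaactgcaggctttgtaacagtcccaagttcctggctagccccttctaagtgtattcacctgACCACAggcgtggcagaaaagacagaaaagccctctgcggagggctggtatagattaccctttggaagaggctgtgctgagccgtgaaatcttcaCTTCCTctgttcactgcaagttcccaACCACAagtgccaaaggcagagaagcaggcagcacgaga
Cxcr6, chr9:123806227-123806526, plus strand: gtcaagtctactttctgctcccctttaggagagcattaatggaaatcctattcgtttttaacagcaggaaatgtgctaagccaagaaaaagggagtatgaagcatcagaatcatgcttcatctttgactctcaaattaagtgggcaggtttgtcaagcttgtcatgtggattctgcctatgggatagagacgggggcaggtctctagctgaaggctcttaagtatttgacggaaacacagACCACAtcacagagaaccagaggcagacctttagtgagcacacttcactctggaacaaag

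The Cxcl10 window holds 1 match to the interferon-stimulated response element, starting at position -213 from the gene's start, and 1 to the kappa B-like site, at position -103. Of the 32851 RefSeq promoters of this length 3.44% hold the first of these motifs and 4.79% the second. Of the 41 promoters of members 2 hold the first and 9 the second. The Cxcr3 window holds 2 matches to AGGAAG and 2 to ACCACA, and the Cxcr6 window 1 match to ACCACA, at position -10. These motifs are found in 35.4% and 16.8% of all promoters, and in 22 and 11 of the 41 member promoters. None of the matches overlap. A match describes the letters only.

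Receptors known from myeloid cells, also grouped with the values known and not tested as a group, lay on the other side. Of the 6, 5 were tested, and in each of these both Rptor-null arrays were above WT. Among all genes tested both lay above WT in 32.8%. With the background at the 99th percentile 2 of the 6 were above it on all arrays. The median log2 difference was 0.62. Only Ccr2 passed, 4 did not, and Xcr1 was too dim to be tested.

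Ccr2, the monocyte receptor for CCL2 that some activated T cells also carry, read 1875 and 1704 in Rptor-null cells, against 1126 in WT cells. It rose 1.58-fold on this probe set (log2 difference 0.66 ± 0.10, adjusted p = 0.00898). Its 4 probe sets disagreed. The second and the third by brightness read 351 and 373 in Rptor-null cells, against 324 in WT cells, and 320.0 and 351 in Rptor-null cells, against 268 in WT cells, while the dimmest read 179 and 127 in Rptor-null cells, against 275 in WT cells. The log2 differences of the 4 thus ranged from -0.80 to 0.66, all 4 were above background, and with their mean the call was lost (log2 difference 0.078, adjusted p = 0.72).

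Ccr1, a receptor for CCL3, CCL5, CCL6 and CCL9, read 127 and 179 in Rptor-null cells and 81.6 in WT cells. The values did not overlap, but the 2 Rptor-null pools were far apart, and the log2 difference of 0.77 ± 0.21 just missed the threshold (adjusted p = 0.0502). It passed under 5 other settings, with an adjusted p from 0.0295 to 0.0496. Ccr3, the receptor for eotaxins on eosinophils and basophils, read 130 and 180 in Rptor-null cells, against 93.9 in WT cells (log2 difference 0.62 ± 0.21, adjusted p = 0.0885). Cx3cr1, the fractalkine receptor of monocytes, macrophages and cytotoxic lymphocytes, read 641 and 835 in Rptor-null cells, against 551 in WT cells (adjusted p = 0.15). Cxcr2, the receptor of neutrophils for CXCL1 and CXCL2, read 113 and 75.1 in Rptor-null cells, against 63.3 in WT cells (adjusted p = 0.227).

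The atypical receptors were dim. Ackr1, which is found on red cells and venules, read 100.3 and 72.8 in Rptor-null cells and 73.6 in WT cells, and Ackr4, a scavenger of CCL19, CCL21 and CCL25, read 89.9 and 82.7 in Rptor-null cells, against 72.7 in WT cells. Neither passed (adjusted p = 0.602 and 0.442). Ackr2 read 36.0 and 47.3 in Rptor-null cells, against 41.7 in WT cells, and Ackr3 read 12.6 and 13.0 in Rptor-null cells, against 12.8 in WT cells, all below background.

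Among the chemokines the group from Ccl3 to Ccl9 held 4 of the 5 rises. Ccl6 and Ccl9 are chemokines of myeloid cells in rodents that act on CCR1. Ccl3 and Ccl4, the macrophage inflammatory proteins, and Ccl5 are made by macrophages and by activated T and NK cells. All 5 were above background on every array, and 4 of 5 rose, beside 3.93% of all genes tested. This group too was formed with the values known.

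Ccl6 read 4598.5 and 4781 in Rptor-null cells, against 1897 in WT cells. Both Rptor-null values exceeded WT by more than 2-fold, and the log2 difference was 1.30 ± 0.086 (2.46-fold higher, adjusted p = 0.00185). Its other probe set read 1633 and 1957 in Rptor-null cells, against 596 in WT cells. Ccl9 read 2803 and 2762 in Rptor-null cells, against 1167 in WT cells, and rose 2.37-fold (log2 difference 1.24 ± 0.090, adjusted p = 0.00202). Its dimmer probe set gave a smaller difference, with 920 and 865 in Rptor-null cells, against 698 in WT cells, a log2 difference of 0.35.

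Ccl4 read 1909 and 1919 in Rptor-null cells, against 1013 in WT cells. The Rptor-null pools were almost equal, and the log2 difference was 0.91 ± 0.094 (1.88-fold higher, adjusted p = 0.00402). Ccl3 read 1291 and 1627 in Rptor-null cells, against 889.7 in WT cells. Its pools were further apart, and it rose 1.62-fold (log2 difference 0.69 ± 0.14, adjusted p = 0.0205), a call lost without a variance trend (adjusted p = 0.0628). Ccl5 was bright in both groups and did not share the rise. It read 7780 and 9222 in Rptor-null cells and 9681 in WT cells (log2 difference -0.19 ± 0.11, adjusted p = 0.291).

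These 5 genes lie close together on chromosome 11 in GRCm38.p6, in the order Ccl5, Ccl9, Ccl6, Ccl3 and Ccl4, within 139 kb (chr11:83525778-83664683). The other chromosome 11 group, Ccl2, Ccl7, Ccl11, Ccl12, Ccl8 and Ccl1, spans 144 kb (chr11:82035577-82179812). Of its 6 members 1 was above background on all arrays, Ccl1, and none passed the test. Ccl1, the ligand of CCR8, read 68.9 and 67.1 in Rptor-null cells and 88.6 in WT cells (adjusted p = 0.223). On chromosome 9 the receptor genes Ccr9, Cxcr6, Xcr1, Ccr1, Ccr3 and Ccr2 span 342 kb (chr9:123767211-124109140), and here neighbours went opposite ways, with 1 lower and 1 higher past the test.

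**Figure D3:**
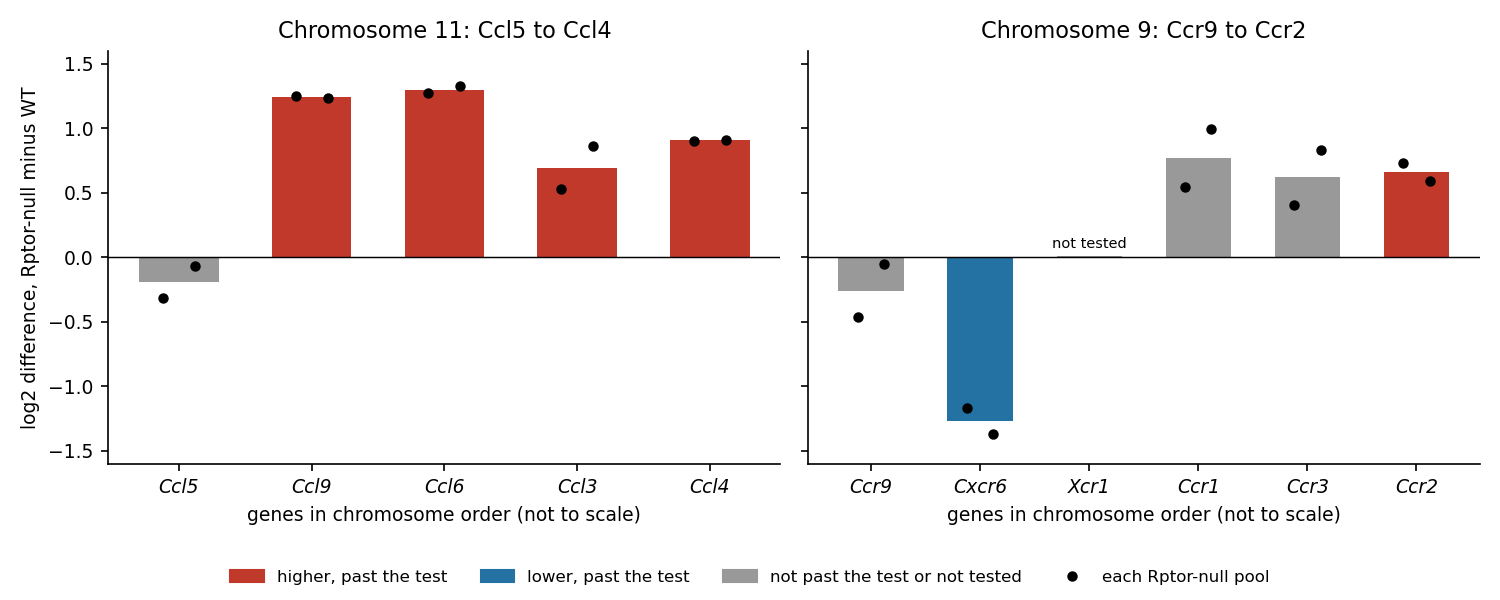
Difference in log2(intensity + 16), Rptor-null minus WT, along the genes of 2 clusters in chromosome order, with bars for the fitted difference and points for each Rptor-null pool. From Ccl9 to Ccl4 all 4 bars stand at 0.69 or higher while Ccl5 is at -0.19, and on chromosome 9 Cxcr6 is at -1.27 while Ccr1, Ccr3 and Ccr2 lie between 0.62 and 0.77.

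The promoters of Ccl6 and Ccl9 are shown because these neighbours had the highest rises of all members. Capitals mark the stretch that a local alignment matched between both genes. Both are read 5′ to 3′ on the minus strand of GRCm38.p6, over the same window as above, from RefSeq.
Ccl6, chr11:83593038-83593337: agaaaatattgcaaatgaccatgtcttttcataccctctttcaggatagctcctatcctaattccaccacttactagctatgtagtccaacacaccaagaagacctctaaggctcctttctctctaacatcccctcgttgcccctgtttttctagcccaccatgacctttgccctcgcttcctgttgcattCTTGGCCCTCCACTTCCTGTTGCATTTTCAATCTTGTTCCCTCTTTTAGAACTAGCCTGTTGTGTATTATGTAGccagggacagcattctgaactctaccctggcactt
Ccl9, chr11:83578587-83578886: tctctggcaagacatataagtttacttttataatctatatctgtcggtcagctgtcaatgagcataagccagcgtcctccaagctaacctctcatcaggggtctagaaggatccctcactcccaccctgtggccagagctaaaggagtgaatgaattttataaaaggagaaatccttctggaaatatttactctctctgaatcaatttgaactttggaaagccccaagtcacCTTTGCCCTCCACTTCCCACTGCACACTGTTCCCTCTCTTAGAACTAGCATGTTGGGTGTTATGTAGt

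The alignment covers 74 columns, of which 58 are identical (78.4%) and 7 are gaps. Counted from the annotated start, it spans positions -59 to 15 in Ccl6 and positions -18 to 49 in Ccl9, so the shared letters sit at another distance from the annotated start in each gene. The Ccl6 window holds 2 matches to AGGAAG and the Ccl9 window none. The Ccl9 window holds TATAAA on either strand at 3 places, 2 of which overlap. That motif is held by 13.6% of all promoters and by 13 of the 41 member promoters. The Ccl9 window also has 1 match to the kappa B-like site, which 9 of the 41 member promoters hold.

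Markers of other cell types moved on the same arrays. Of the macrophage and monocyte markers 6 of 11 tested rose, 0 fell and 5 did not pass. Among all genes tested 3.93% rose and 11.1% fell, and these lists too were chosen with earlier results known. Their summed level was 40576 and 45489 in Rptor-null cells and 29541 in WT cells, none was at or below background, and their median log2 difference was 0.61. Vcam1, an adhesion molecule that splenic macrophages carry, rose 2.29-fold and Mertk, a receptor for dying cells, 2.34-fold. Of the basophil and mast cell markers 4 of 6 rose and 0 fell, with a summed level of 1858 and 2219.6 in Rptor-null cells, against 1095 in WT cells. The part of these markers in the rises of Ccl6, Ccl9, Ccl3, Ccl4, Ccl24 and Ccr2 was not tested.

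Other marker lists moved less. Neutrophil markers had 0 of 5 past the test in either direction, with a summed level of 19520 and 19810 in Rptor-null cells and 20986 in WT cells. B cell markers had 0 of 5 past the test, with Pax5, Fcrla and Cr2 at or below background on all arrays and a summed level of 550.3 and 556 in Rptor-null cells, against 629 in WT cells. Dendritic cell markers had 1 of 6 lower and 0 higher, with a median log2 difference of 0.33, Xcr1 at or below background and a summed level of 948 and 1002 in Rptor-null cells, against 993 in WT cells. The marker that fell was Cd209a, at 137 and 129 in Rptor-null cells, against 370.4 in WT cells. The other 5 tested, Flt3, Zbtb46, Itgax, Siglech and Batf3, had both Rptor-null arrays above WT without passing, with Batf3 nearest to the threshold (adjusted p = 0.0501). NK and cytotoxic markers had 1 of 9 higher, Eomes, and 1 lower, Cd8b1, with Cd8a at or below background and a summed level of 22358 and 24286 in Rptor-null cells, against 21096 in WT cells.

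Outside the Ccl3 to Ccl9 group the 1 further rise among the chemokines was that of Ccl24, eotaxin 2, which acts on CCR3. It read 157 and 170.1 in Rptor-null cells, against 94.3 in WT cells, and rose 1.63-fold (log2 difference 0.70 ± 0.16, adjusted p = 0.0269). The neutrophil attractants were not called. Cxcl2 read 1033 and 1405 in Rptor-null cells and 872 in WT cells (log2 difference 0.46 ± 0.17, adjusted p = 0.123), with both pools above WT but wide apart. Cxcl1 read 262 and 298 in Rptor-null cells, against 263 in WT cells (adjusted p = 0.759), and Cxcl3 and Cxcl5 were below background. The Cxcl1 probe sets above background have names ending in _x_at or _s_at. Its remaining probe set read 20.2 and 27.8 in Rptor-null cells, against 22.7 in WT cells, below background on all arrays. Xcl1, the lymphotactin of T and NK cells, read 318 and 385 in Rptor-null cells, against 357 in WT cells (adjusted p = 0.925).

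The other chemokines above background were homeostatic or mucosal factors and none passed. Cxcl16, the ligand of CXCR6, read 187 and 214 in Rptor-null cells and 187 in WT cells (log2 difference 0.090 ± 0.16, adjusted p = 0.755). Cxcl13, the follicular ligand of CXCR5, read 93.5 and 85.5 in Rptor-null cells, against 77.8 in WT cells (adjusted p = 0.537). Cx3cl1 read 89.0 and 77.4 in Rptor-null cells, against 74.5 in WT cells, Ccl25 read 81.7 and 77.5 in Rptor-null cells, against 71.1 in WT cells, and Cxcl17 read 86.1 and 94.2 in Rptor-null cells, against 91.2 in WT cells. Their adjusted p-values were 0.653 for Cx3cl1, 0.629 for Ccl25 and 0.962 for Cxcl17.

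Receptors were set beside their ligands in 14 pairings taken from textbook knowledge and written with the values known. CCR1 and CCR7 were not among them, and CCR10 was paired with CCL28 alone, without CCL27. Ccr1 and its ligands Ccl3, Ccl5, Ccl6 and Ccl9 were all above background on all 3 arrays, so the counts below leave out that pairing. In 7 the receptor and at least 1 ligand were above background on all 3 arrays, in 4 only the receptor was, in 2 only a ligand, and in 1 neither. These counts depend on the background level. At the 99th percentile Cxcl13, Ccl25, Cx3cl1, Ccl24, Ccr3 and Cxcr2 were no longer above it on all 3 arrays. Of those 7 only the CXCR3 and CXCR6 pairings then kept both sides. In the CXCR3 pairing receptor and ligand both fell, with log2 differences of -0.96 for Cxcr3 and -0.85 for Cxcl10. In the CXCR5 and CXCR6 pairings the receptor fell while the ligand did not pass (0.17 for Cxcl13 and 0.090 for Cxcl16). In the CXCR4 pairing the receptor rose and Cxcl12, the stromal ligand, was below background, with 27.6 and 26.7 in Rptor-null cells and 28.7 in WT cells. In the CCR3 pairing Ccl24 rose while Ccr3, with a log2 difference of 0.62, did not pass.

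Genes that act downstream of chemokine receptors lay on both sides of WT. Of 34 listed 31 were tested, of which 5 fell, 3 rose and 23 did not pass, and their median log2 difference was 0.0077. Over all genes tested 11.1% fell and 3.93% rose, and whether the list stands apart from them was not tested. Tiam1, an exchange factor for Rac, read 700 and 678 in Rptor-null cells, against 1495 in WT cells (2.15-fold lower, adjusted p = 0.00344). Rac2, the Rac GTPase of blood cells, read 2982 and 3109 in Rptor-null cells, against 6482 in WT cells (2.12-fold lower, adjusted p = 0.00267). Coro1a, Rac1 and Was, which act on the actin cytoskeleton, also fell. Pik3cg, the PI3 kinase subunit activated by G proteins, read 487 and 512 in Rptor-null cells, against 355 in WT cells (1.39-fold higher, adjusted p = 0.0421). Rgs2, which shortens G protein signals, read 3630.1 and 3435 in Rptor-null cells, against 2807 in WT cells (1.26-fold higher, adjusted p = 0.0472), and Rap1b also rose.

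Of the 12 members past the test 8 have 1 probe set and 4 have several. In Cxcr6, Ccl6 and Ccl9 all probe sets lay on the same side of WT, and in Ccr2 they did not. Among all 20 members with several probe sets 7 had them all on the same side.

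**Figure D4:**
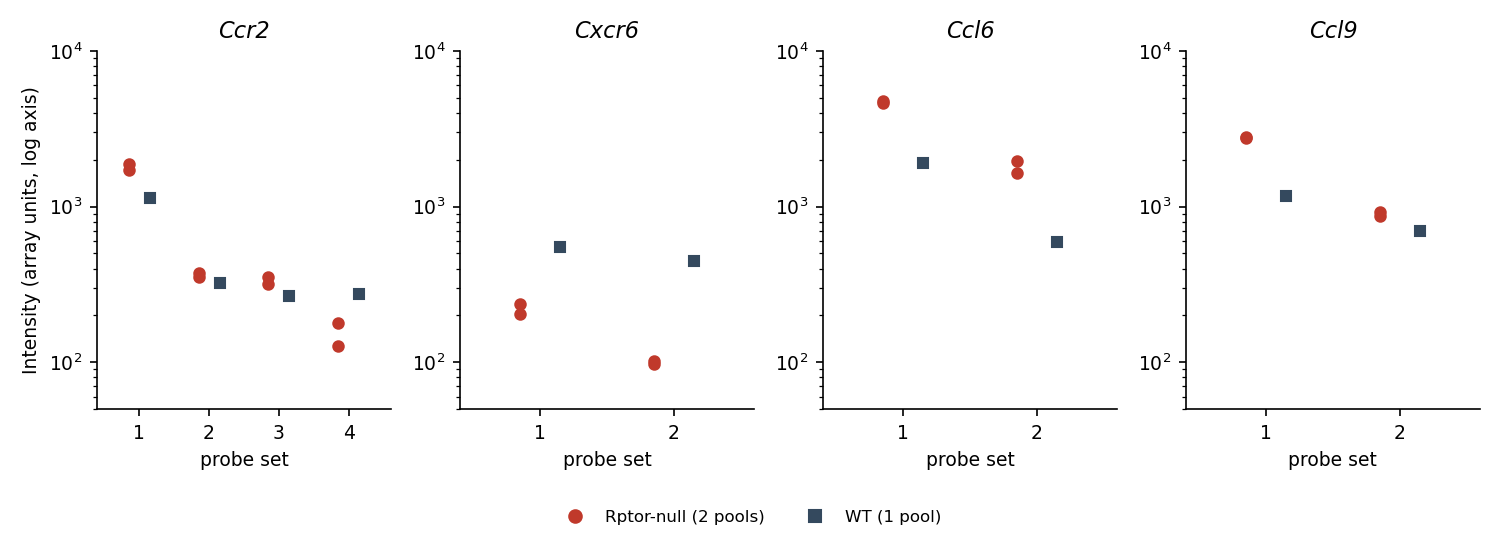
Intensity (log axis, array units) of each probe set of the 4 members past the test that have several, numbered from bright to dim, with circles for the 2 Rptor-null pools and a square for the WT pool. The probe sets of Cxcr6 lie below WT and those of Ccl6 and Ccl9 above it, while the fourth of Ccr2 lies below WT, at 179 and 127 in Rptor-null cells against 275 in WT cells, and its other 3 above.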

How the data were processed

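Single-colour Affymetrix arrays were hybridised with biotin-labelled cRNA of TRIzol-extracted RNA, per the labels' protocols. The deposited values are probe-set intensity on a linear scale, already scaled by the authors; the submitters' processing notes list MAS5 with no version, and other steps are not given in the sources used here. For arrays, the number of arrays limits the precision. The platform annotation named 34945 of 45101 probe sets with 1 gene, 932 with several and 9160 with none, beside 64 controls, which were left out.

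Intensities became log2(intensity + 16). Probe sets whose 2 group means averaged above the 40th percentile (35.0 units) were kept, 27022 in all, and the brightest stood for a gene. Linear models of the 12721 genes came from limma 3.58.1, run under R 4.3.3, using lmFit and a trended eBayes prior (1 residual and 6.39 prior degrees of freedom). Tests were two-sided, with Benjamini-Hochberg adjustment and a threshold of 0.05.

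Members, lists, role groups and motifs were chosen with earlier results of these data known. Named genes were all members above background or past the test, Cxcr5, Ccr7 and Cxcr4, and, of the downstream list, the 2 past the test with the largest differences in each direction. Members with neither are named with their range. Alternatives were other pseudocounts, filters, scalings, probe-set rules, variance priors and background levels, and each Rptor-null array left out. The arrays correlated across probe sets at 0.995 between the Rptor-null pools and at 0.987 and 0.988 with WT. No batch was given. The labels call the Rptor-null pair biological replicates.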

Additional observations from a re-analysis of the deposited data

How the results depend on the processing

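The 12 calls among the members kept their direction under all 9 alternatives with a test, and 10 of the 12 stayed past the threshold in each. The exceptions were Ccr2 with the mean of probe sets and Ccl3 without a variance trend, given above. Of the members that did not pass, Ccl25 turned to -0.046 with the mean of probe sets and Xcl1 to 0.079 after quantile normalization. Ackr1, Ackr2, Ccl20, Cxcl1, Cxcl9, Cxcl16, Cxcl17 and Xcl1 also changed sign when 1 of the Rptor-null arrays was left out. Without replicate 1, Cxcl9 turned to 0.064, Xcl1 to 0.10 and Ackr1 to -0.014. With the background at the 99th percentile the members above it were 9 receptors and 11 chemokines. The receptors at least 2-fold lower were 1 to 2 when either Rptor-null array was left out, and the chemokines at least 2-fold higher became 1 with the mean of probe sets. With the 60th percentile filter, which tests fewer genes, 5 receptors lay below WT on both arrays, 6 chemokines above and 2 below. Without a filter 7 chemokines lay below, and 5 to 9 did with either Rptor-null array left out, the 9 without the second.

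The receptor median depended on 1 array. It was 0.0057 without a filter, 0.19 with the 60th percentile filter and -0.043 to 0.060 with either Rptor-null array left out, the negative value without the second. The chemokine median was 0.16 and 0.087 with pseudocounts of 1 and 64, 0.086 without a filter, 0.090 with the 60th percentile filter, 0.15 after quantile normalization, 0.086 after median centring and 0.068 with the mean of probe sets. Over all genes the lower calls numbered 1411, against 700 after quantile normalization and 769 without a trend, and higher calls 500, against 525 and 301. No paired analysis was possible because the WT group has 1 array and its label carries no replicate number. No test was possible with a Rptor-null array left out, since no residual degree of freedom remains.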

Other observations

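Family members whose symbols do not follow the naming rule were read on the same arrays. Ccrl2, an atypical receptor that binds chemerin, read 426 and 422 in Rptor-null cells and 524 in WT cells (log2 difference -0.30 ± 0.12, SE; limma adjusted p = 0.151). The platelet chemokines were dim but above background. Pf4 read 76.2 and 80.4 in Rptor-null cells and 86.2 in WT cells, and Ppbp read 67.9 and 84.4 in Rptor-null cells, against 67.1 in WT cells (limma adjusted p = 0.681 and 0.644). A probe set annotated to 10 symbols, Ccl19 among them, read 64.1 and 62.0 in Rptor-null cells and 58.0 in WT cells. Another, annotated to 5 symbols with Ccl27a and Ccl27b among them, read 53.6 and 65.5 in Rptor-null cells and 56.7 in WT cells. It was above background on all 3 arrays, while the other probe sets that name Ccl27a were below it. The probe set shared by the Ccl21 copies read 39.97 and 30.4 in Rptor-null cells, against 39.4 in WT cells, below background. Gpr182 and Ccr1l1 were also below background on all arrays.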
